A study of Mus musculus with 2 samples.

Results

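Glycolysis splits glucose into pyruvate, and in activated T cells much of that pyruvate leaves as lactate. Nearly every step can be run by several enzymes or carriers encoded by separate genes, called isoform genes here, and many of these are used mainly in muscle, liver, brain, red cells or testis. The 35 genes described here were chosen by name: glucose carriers, the enzymes from hexokinase to lactate dehydrogenase, lactate carriers, and 2 groups of regulatory kinases. They are 35 of 21851 protein-coding genes on the nuclear chromosomes. No measured value served as a criterion, but the choice was made with earlier results of these data known.

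Accessible DNA was mapped by ATAC-seq, which uses a transposase to cut and tag open chromatin, in primary T helper 2 (Th2) cells of C57BL/6NJ mice. Th2 cells are the CD4 T cells of allergic and anti-parasite responses and make Il4, Il5 and Il13. There was 1 group of 2 replicates, with no control or second cell type. The labels do not state sex or age and give both replicates the same donor record with separate biosamples, so their differences may be technical. The labels name no treatment. Parts of the region names (ASTARR, insert, and a number of hours) are explained in neither labels nor headers and leave it unclear whether the sequenced fragments were genomic or were recovered from clones.

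The deposited lists held 51557 open regions in replicate 1 and 60891 in replicate 2. An open region is a stretch called by the authors in a replicate, and its fold enrichment ("fold" below) is their ratio of the signal at its summit to the local background. The summit pileup is the whole-number count at the summit, recovered here from the deposited fold and p-value. What 1 count stands for is not given in the sources used here. A shared region joins overlapping regions of both replicates, and 44058 regions resulted. Of the genes that define T cells, 5 of the 5 that matched the annotation had an open promoter in both replicates, as had 5 of 5 Th2 genes, among them Gata3, Il4 and Il13. Defining genes of other cell types were open in 0 of 5 for muscle, 0 of 5 for liver, 0 of 5 for myeloid cells and 0 of 4 for B cells. They were open in 1 of 5 for testis (Zpbp), 1 of 5 for neurons and astrocytes (Syn1) and 3 of 5 for erythroid cells (Klf1 and Epor among them, with no region over a start site). By the same rule 58.3% of all protein-coding genes had an open promoter, and the erythroid count lay near that share. All coordinates are on mm10 (GRCm38), and values are given for replicate 1 and then replicate 2.

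A promoter was called open when a shared region came within 1 kb of a start site of a protein-coding transcript. By this rule 31 of the 35 genes had an open promoter (88.6%), against 58.3% of all protein-coding genes. The 4 without one were Pklr, Ldhc, Pfkfb1 and Pdk4. A shared region lay over a start site itself in 28 of 35 (80%), against 55.1% of all protein-coding genes. The 3 genes that passed within 1 kb but not at the start site were Hk3, Pgam2 and Eno3. The share of open promoters was thus above that of all genes, while the median fold was not. The strongest promoter regions of the 31 open genes had a median fold of 9.01 and 9.45, against 9.64 and 10.9 over all genes with an open promoter. Some calls hung on the rule. With start sites taken only from the 5′ end of each gene, Hk1, Ldha and Pfkfb2 were not open, and with a mutual overlap of 0.5 of both regions, Pgk1 and Pfkfb2 were not. Among the 31, 11 lay above the median of all open genes in both replicates.

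Both replicates gave a similar order (Spearman's rho 0.952 across the 31 genes, a description only). Over the 31 strongest promoter regions the fold was higher in replicate 2 at 25, and the ratio of replicate 2 to replicate 1 ran from 0.909 to 1.31 with a median of 1.07. Over all 12538 shared promoter regions the 5th to 95th percentile of that ratio was 0.862 to 1.43, with a median of 1.11, and 0 of the 31 fell outside it. Below, a difference between 2 isoform genes is called larger than the replicate spread when the ratio of their folds was above 1.43 in both replicates. This limit includes the median shift of 1.11 between replicates, which a ratio taken within 1 replicate does not hold. It is therefore strict, and a pair below it may still differ.

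**Figure D1:**
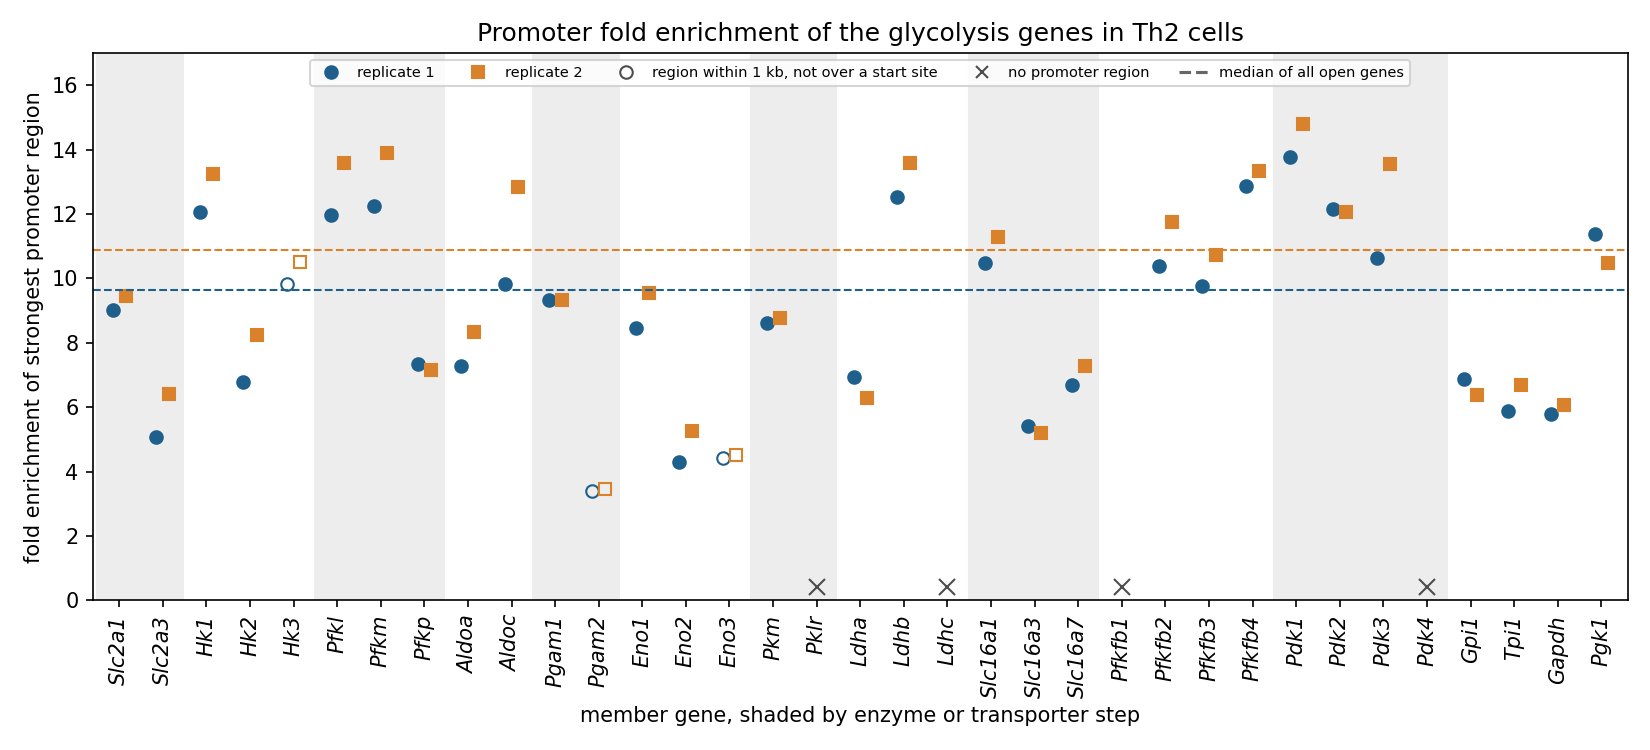
Fold enrichment (vertical axis, a ratio) of the strongest promoter region of each gene in replicate 1 (circles) and replicate 2 (squares), with genes of the same step on the same shading. Open symbols mark Hk3, Pgam2 and Eno3, whose region does not reach a start site, crosses mark the 4 genes without a promoter region, and dashed lines mark the medians of all open genes, 9.64 and 10.9.

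Glucose enters T cells mainly through the carriers Slc2a1 and Slc2a3, and hexokinases then trap it as glucose 6-phosphate. Slc2a1, the widely used carrier, had a promoter region at chr4:119108324-119109457 with a fold of 9.01 and 9.45 and a summit pileup of 184 and 282. Slc2a3, the high-affinity carrier, had one at chr6:122742092-122743508 with a fold of 5.07 and 6.40 and a pileup of 34 and 61. The Slc2a1 fold was the higher by 1.78 and 1.48 times, larger than the replicate spread.

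Hk1, the hexokinase of most tissues, had a fold of 12.1 and 13.2 at chr10:62338993-62341023. That region covered 1 of its 4 annotated start sites, the one of transcript Hk1-202. The other start sites lay 1699, 17339 and 25027 bp from the nearest shared region, so for Hk1 the lists single out 1 of several alternative first exons. Hk2, the inducible hexokinase of growing cells and muscle, had 6.78 and 8.23 at chr6:82773201-82775023, over both of its start sites. Hk1 was higher than Hk2 by 1.78 and 1.61 times. Hk3, known mainly from myeloid cells, had 9.84 and 10.5 at chr13:55022359-55023296. That region ended 974 bp upstream of the nearest Hk3 start site, just inside the 1 kb limit, with its summit at −1498 and −1491 bp from the start. With replicate 2 left out, the region no longer reached the limit.

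After Gpi1, which turns glucose 6-phosphate into fructose 6-phosphate, phosphofructokinase makes the committed step. Gpi1 had a fold of 6.87 and 6.38 at chr7:34229677-34230542. The start sites of the liver-type Pfkl, the muscle-type Pfkm and the platelet-type Pfkp were each covered. Pfkl had a fold of 11.97 and 13.6 and a pileup of 169 and 252 at chr10:78008740-78010168. Pfkm had 12.2 and 13.9 with a pileup of 73 and 98 at chr15:98108033-98109133, over the start of Pfkm-201. By fold, Pfkm over Pfkl was 1.02 and 1.02, within the replicate spread. By pileup it was 0.432 and 0.389, with Pfkl the higher beyond the spread of that measure. The 2 other Pfkm start sites lay 39 and 94 bp outside a second region with 7.85 and 10.6, whose summit was nearer the start of the neighbour Senp1. Pfkp had 7.34 and 7.17 at chr13:6648528-6649406 with a pileup of 135 and 198. It had a second region inside intron 1 with 6.52 and 7.10, 771 bp from the nearest start.

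Aldolase cuts the six-carbon sugar. Aldoa, the muscle and general form, had a fold of 7.28 and 8.33 and a pileup of 127 and 205 at chr7:126798517-126800105, over 2 of its 3 start sites. Aldoc, the form known from brain, had 9.82 and 12.8 with a pileup of 75 and 141 at chr11:78322578-78323492. Aldoc stood above Aldoa by 1.35 and 1.54 times, which did not exceed the spread in both replicates.

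The later part of the pathway starts with 3 enzymes taken here as single genes. Tpi1, which interconverts the triose phosphates, had a fold of 5.89 and 6.67 at chr6:124813357-124814669. Gapdh, which reduces NAD while oxidising glyceraldehyde 3-phosphate, had 5.79 and 6.07 at chr6:125164852-125167168. Pgk1, which makes the first ATP of the payoff phase, had 11.4 and 10.5 at chrX:106186347-106188216. Among these 3 widely expressed genes, Gapdh and Tpi1 were thus among the lower open promoters by fold. Their pileups were 155 and 234 for Gapdh and 90 and 128 for Tpi1. Those of Gapdh lay above the medians of 102 and 139 over the members' promoter regions, on a local background of 25.9 and 37.7. Those of Tpi1 lay below these medians. The testis forms Gapdhs and Pgk2, not among the 35, had no open promoter.

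Phosphoglycerate mutase and enolase each have a general and a tissue-restricted form among the 35 genes. Pgam1, the general mutase, had a fold of 9.32 and 9.33 at chr19:41911359-41912917 with a pileup of 102 and 131. Pgam2, the muscle mutase, had 3.40 and 3.44 at chr11:5802577-5803327 with a pileup of 20 and 24, whose exact Poisson intervals were 12.2 to 30.9 and 15.4 to 35.7. That region lay in intron 2, 406 bp inside the gene from the start site. Replicate 2 alone had a weak region nearer the start, with a fold of 2.48 and a −log10 q of 1.94. The ratio of Pgam1 to Pgam2 was 2.74 and 2.71, the highest among the isoform pairs compared by fold.

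Eno1, the general enolase, had 8.46 and 9.53 with a pileup of 199 and 299 at chr4:150236421-150237790. Eno2, the neuronal enolase, had 4.29 and 5.26 at chr6:124769165-124770086 with a pileup of 25 and 38, and its 3 start sites were covered. Eno3, the muscle enolase, was reached by a region with 4.43 and 4.51 at chr11:70653309-70656533. That region ended 669 bp upstream of Eno3, and its summit lay nearer the start of the actin-binding gene Pfn1. Eno1 stood above Eno2 by 1.97 and 1.81 times and above Eno3 by 1.91 and 2.11 times. A brain and a muscle isoform of the same enzyme thus both passed the rule, one with a weak region over its start and one through a neighbour's region. The values for Pgam2, Eno2 and Eno3 rest on few counts or on distance: a minimum −log10 q of 10 removed Pgam2 and Eno2, and leaving out replicate 2 removed Eno3 as well as Hk3.

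For pyruvate kinase, Pkm had an open promoter and Pklr had none by the rule. Pkm, which serves most tissues, had a fold of 8.62 and 8.78 at chr9:59655949-59657479, with pileups of 219 and 308, the highest of the members' promoters in each replicate. Both start sites of Pkm were covered. Its muscle and its growth-associated enzyme forms arise by alternative splicing of a single transcript, which open regions at the start do not show. Pklr, the liver and red-cell gene, had no region within 1 kb. Its nearest shared region ended 3028 bp upstream of the start site, at chr3:89132339-89133114, with 3.98 and 5.69. The 120 bases upstream of the first start sites are shown because the covered and the uncovered gene differ in CpG dinucleotides, which are in capitals. They are read 5′ to 3′ on the coding strand, Pkm from chr9:59656248-59656367 and Pklr from chr3:89136022-89136141, both on the plus strand.
Pkm: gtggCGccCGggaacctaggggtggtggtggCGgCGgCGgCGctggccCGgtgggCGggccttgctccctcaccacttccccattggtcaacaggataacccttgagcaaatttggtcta
Pklr: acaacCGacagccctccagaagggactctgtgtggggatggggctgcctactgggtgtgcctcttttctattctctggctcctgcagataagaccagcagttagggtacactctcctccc
The Pkm stretch, inside the open region, holds 8 CpG dinucleotides, and the Pklr stretch holds 1.

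Lactate dehydrogenase followed the same split for its testis form. Ldha, which favours lactate production, had a fold of 6.92 and 6.29 and a pileup of 89 and 96 at chr7:46844996-46847349, over 4 of its 5 start sites. Ldhb, the heart form, had 12.5 and 13.6 with a pileup of 105 and 119 at chr6:142507312-142508352. Ldhb was the higher by 1.81 and 2.16 times on fold, beyond the replicate spread, whereas the pileups of the pair differed by 1.18 and 1.24 times, within it. Ldhc, the testis form, lies next to Ldha on chromosome 7 and had no promoter region. The nearest shared region ended 4755 bp upstream of Ldhc, at chr7:46855409-46856448, with 4.31 and 5.18, and it overlaps the 3′ end of Ldha. The 3 upstream stretches are shown to set genes with and without an open promoter side by side, with CpG in capitals as above. They are Ldha chr7:46845684-46845803 (plus), Ldhb chr6:142507958-142508077 (minus) and Ldhc chr7:46861083-46861202 (plus). The Ldha stretch ends 36 bases before the start of Ldha-202, and the others end at the base before the start.
Ldha: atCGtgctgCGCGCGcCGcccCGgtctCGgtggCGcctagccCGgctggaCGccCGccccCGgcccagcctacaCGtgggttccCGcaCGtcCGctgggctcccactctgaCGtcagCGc
Ldhb: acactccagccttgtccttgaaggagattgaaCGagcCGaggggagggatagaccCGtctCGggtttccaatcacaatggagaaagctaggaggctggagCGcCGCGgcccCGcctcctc
Ldhc: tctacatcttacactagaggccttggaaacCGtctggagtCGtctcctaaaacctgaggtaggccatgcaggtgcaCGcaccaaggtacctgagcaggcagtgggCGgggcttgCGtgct
They hold 18, 8 and 5 CpG dinucleotides, in that order. Ldhc, without an open promoter, thus has the fewest of the 3, while the less enriched Ldha has the most.

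Lactate leaves through monocarboxylate carriers. Slc16a1, the general carrier, had a fold of 10.5 and 11.3 and a pileup of 133 and 178 at chr3:104637974-104639778. Slc16a3, the export carrier of strongly glycolytic cells, had 5.41 and 5.21 with a pileup of 72 and 84 at chr11:120948472-120949621, over its 3 start sites. Slc16a7, a high-affinity carrier, had 6.68 and 7.27 on a pileup of 26 and 33 at chr10:125388866-125389833, over 1 of its 4 start sites. Slc16a1 was above Slc16a3 by 1.94 and 2.16 times and above Slc16a7 by 1.57 and 1.55 times. Slc16a7 shows how the 2 measures part: its fold was above that of Slc16a3, but its pileup was lower, on a local background of 3.04 and 3.68 against 12.5 and 15.3.

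Enzymes of the Pfkfb family make and remove fructose 2,6-bisphosphate, the activator of phosphofructokinase. Pfkfb3, the isoform with the strongest kinase activity, had 3 promoter regions and 4 covered start sites. They had a fold of 9.78 and 10.7 at chr2:11552540-11554314, of 7.72 and 7.55 at chr2:11500778-11502296 and of 4.62 and 4.97 at chr2:11502940-11503510. The first lies at the distal first exon and the others about the downstream cluster of starts, so both alternative promoters of Pfkfb3 were open. Pfkfb4, best known from testis and from low oxygen, had 12.9 and 13.3 at chr9:108991420-108992209. Pfkfb2, the heart form, had 10.4 and 11.7 at chr1:130715400-130717847, over 2 of its 5 start sites and with the start of Yod1 within 1 kb of the region. Pfkfb1, the liver and muscle form, had none by the rule. A region with 7.88 and 7.93 at chrX:150587769-150588809, at the start of the DNA repair gene Apex2, ended 1112 bp from its nearest protein-coding start. A RefSeq start of Pfkfb1 at 150588243 lies inside that region, and the gene counted as open under 3 other settings (start sites from the 5′ end of the gene, a 2.5 kb limit, or the full annotation).

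Pyruvate dehydrogenase kinases shut off the entry of pyruvate into the mitochondrial cycle. Pdk1, a target of the hypoxia factor HIF, had 13.8 and 14.8 at chr2:71872699-71874046, the highest promoter fold of the 35 genes in both replicates. Pdk2 had 12.1 and 12.1 at chr11:95040892-95042347, and Pdk3 had 10.6 and 13.5 at chrX:93831323-93832524. Differences in fold among these 3 stayed within the replicate spread. By pileup, Pdk1 over Pdk3 was 2.82 and 2.82, beyond the spread of that measure, while the other pairs of the 3 did not pass it in both replicates. Pdk4, induced by fasting in muscle and liver, had no promoter region, and its nearest shared region ended 13435 bp upstream with 3.59 and 5.42.

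Across the 11 steps with more than 1 isoform gene (31 genes), every isoform had an open promoter in 7. With the stricter demand of a region over a start site, every isoform was open in 4: glucose carriers, phosphofructokinases, aldolases and lactate carriers. A single isoform was open at its start in 2, the mutases (Pgam1) and the pyruvate kinases (Pkm). The genes without a covered start were Hk3, Pgam2, Eno3, Pklr, Ldhc, Pfkfb1 and Pdk4. A restricted tissue name did not by itself mark a gene without a covered start, since Pfkm, Aldoc, Eno2 and Ldhb had covered starts.

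Of the 22 pairs of open isoforms within a step, 10 differed in fold by more than the replicate spread, and 8 of the 17 pairs in which both starts were covered did so. Besides the pairs given above, these include Pfkl and Pfkm over Pfkp, by 1.63 and 1.89 times and by 1.67 and 1.94 times. The same share among pairs of unrelated open genes was not computed, so the counts are not read as particular to isoforms. Over all open genes the 25th to 75th percentile of the strongest promoter fold was 6.93 to 12.1 and 7.80 to 13.5. No pair among the Pfkfb and Pdk kinases passed the replicate spread on fold. By pileup, Pfkfb4 over Pfkfb3, at 1.92 and 2.13, and Pdk1 over Pdk3, at 2.82 and 2.82, passed the limit of that measure. The other pairs of these kinases did not. The order depended on the measure. With the summit pileup in place of the fold, whose own spread reached 1.81 at the 95th percentile, 6 of the 10 kept their order beyond the spread. Pfkm over Pfkp turned to 0.541 and 0.495 times. Hk1 over Hk2, Pfkl over Pfkp and Ldhb over Ldha kept their direction but did not pass the limit of 1.81. The replicate ratio of pileups had a median of 1.38, a shift that this limit includes, so it is strict as well. Hk1 over Hk2 was 1.43 and 1.43 by pileup. Eno1, Pgam1 and the glucose and lactate carriers Slc2a1 and Slc16a1 led their steps by both measures.

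**Figure D2:**
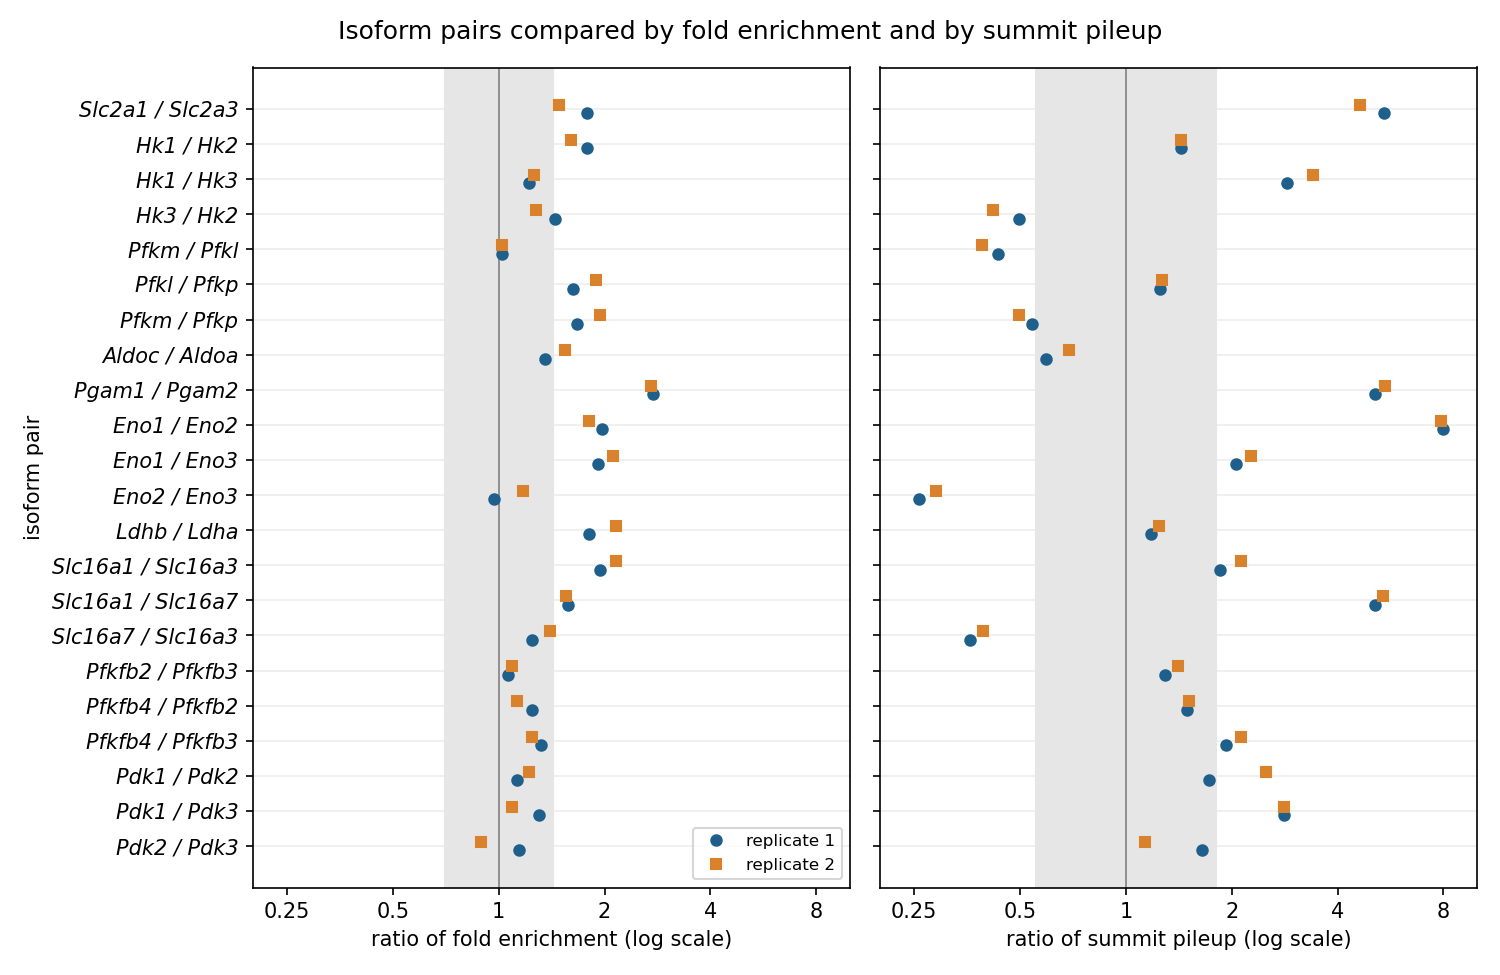
Ratio of each isoform pair (rows) in replicate 1 (circles) and replicate 2 (squares), by fold enrichment on the left and by summit pileup on the right, on log axes. Grey bands end at the 95th percentile of the replicate ratio over all promoter regions, 1.43 and 1.81, and at its inverse; Pfkm / Pfkp lies to the right of the band by fold and to the left of it by pileup.

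Covered and uncovered start sites differed in base composition, a feature the choice of genes did not use. RefSeq promoters (GRCm38.p6, 250 bases before to 50 after a start) were matched for 33 of the 35 genes, and Slc2a3 and Slc16a7 were not matched. Of their 54 promoters 35 had the start inside a shared region and 19 did not. The ratio of observed to expected CpG, where 1 means as many as the base content gives, had a median of 0.714 (0.338 to 1.06) in the first and 0.141 (0 to 0.601) in the second. The same split held over all protein-coding genes, at 0.796 for 10924 and 0.234 for 9219 promoters, so it is not particular to glycolysis. Within a gene with alternative promoters it recurred: the Hk1 promoter at the covered start had 0.665 and the one at the distal start 0.0507. For Aldoa the values were 0.714 and 0.751 against 0, and for Aldoc 0.338 against 0.141. Promoters of a gene overlap in part and are not independent.

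**Figure D3:**
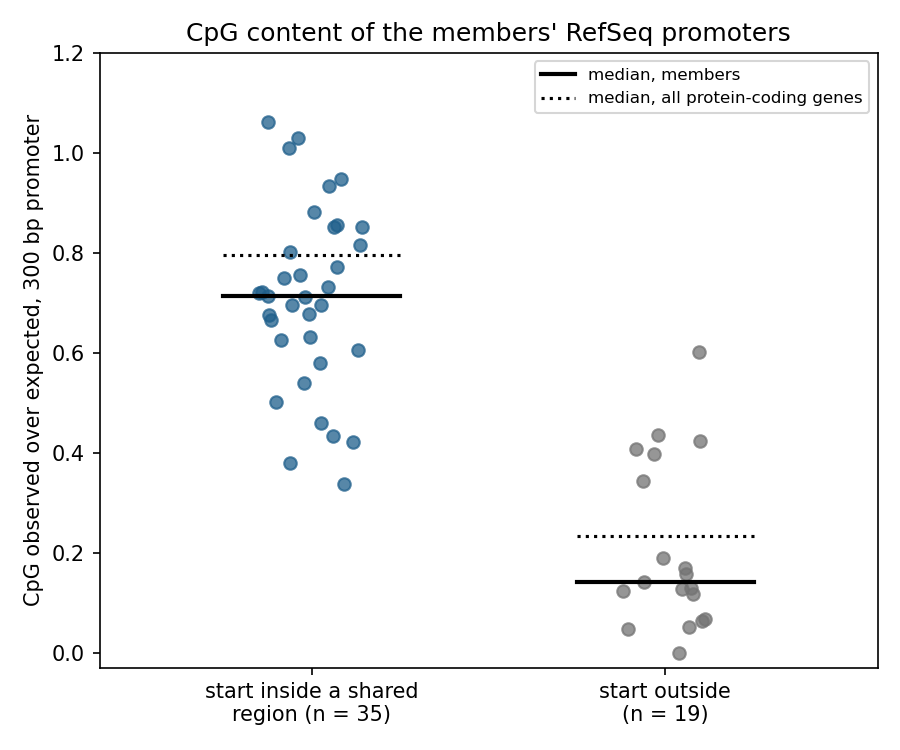
Observed over expected CpG (vertical axis) of the 54 RefSeq promoters of 33 genes, by whether the start lay inside a shared region; horizontal position within a group is scatter. Solid lines are the medians, 0.714 and 0.141, and dotted lines those of all protein-coding genes, 0.796 and 0.234.

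Glycolysis genes are textbook targets of HIF and of MYC, whose binding sequences share the letters ACGTG. The 200 bp windows at the summits of the 35 promoter regions were searched on both strands for 11 short sequences. The core ACGTG was in 20 of 35 windows (57.1%, Wilson 95% interval 40.9 to 72.0%), in 18 genes, against 19.4% of all 12538 promoter windows. The GC content was alike, with a median of 64.5% against 65.5%, and so was the CpG ratio, 0.766 against 0.819. Only medians were compared, and whether base composition bears on the difference in ACGTG was not tested. The full E-box of MYC and MAX, CACGTG, every copy of which holds the core, was in 4 windows (11.4%, 4.54 to 26.0%) against 7.29%. The interval of the core lay above the share of all promoter windows, and that of the full E-box included it. The box CCAAT, read by NF-Y, was in 48.6% (33.0 to 64.4%) against 29.2%, so its interval also lay above the share of all promoter windows. The GC box GGGCGG, read by SP1, was in 60% against 57.4%. Sequences of the T cell factors were rare at these promoters, as at promoters at large. The GATA sequence AGATAA was in 5.71% against 2.54%. The STAT sequence TTCNNNGAA was in 0 of 35, which allows up to 9.89%, against 4.06%. The AP-1 sequence TGANTCA was in 5.71% against 4.25%. The other 4 were CCGGAAG (ETS) in 8.57% against 14.1%, TGTGGT (RUNX) in 5.71% against 8.13%, GGAAAA (NFAT) in 8.57% against 10.2% and TGACGTCA (CREB) in 2.86% against 2.54%. Intervals cover counting error only and were not widened for the search of 11 sequences. Pfkm, Pfkp and Pfkfb3 each gave more than 1 window, so the windows are not all independent. A match is a description of letters, not of binding.

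**Figure D4:**
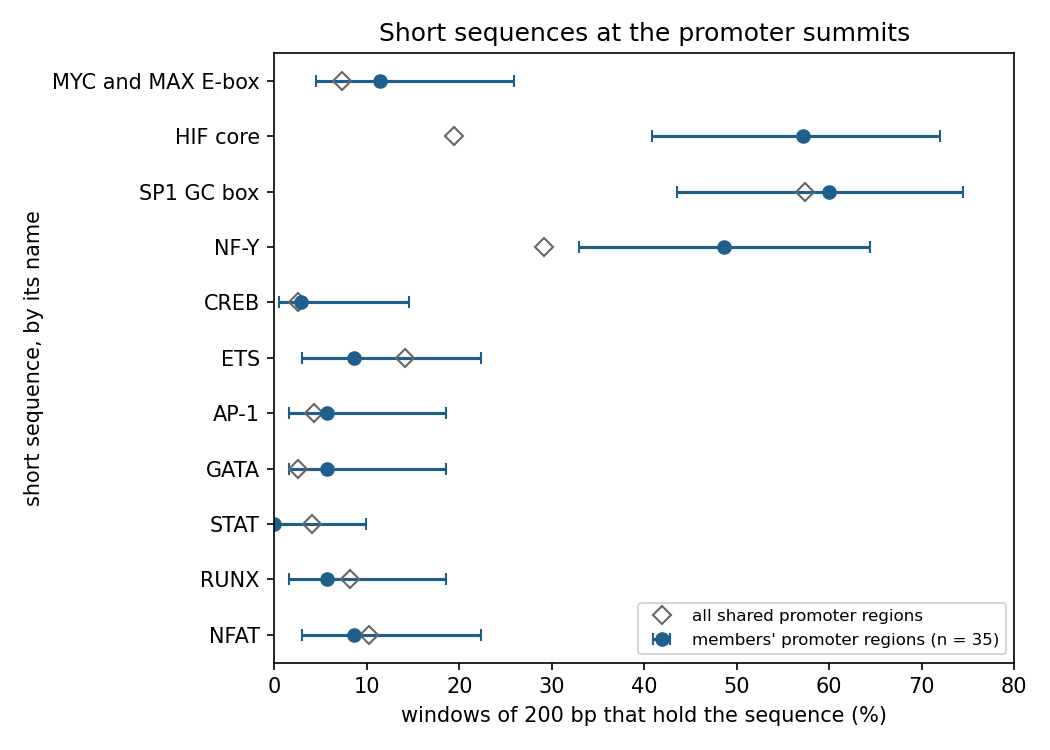
Share of 200 bp summit windows (horizontal axis, percent) that hold each short sequence, for the 35 promoter regions of the glycolysis genes (filled circles, Wilson 95% intervals) and all 12538 shared promoter regions (open diamonds). The HIF core is at 57.1% against 19.4%, and the NF-Y sequence at 48.6% against 29.2%.

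Genes with the core spread over the pathway: Slc2a1, Hk1, Hk2, Gpi1, Pfkl, Pfkp, Aldoc, Gapdh, Pgk1, Pgam1, Ldha, Slc16a1, Slc16a3, Pfkfb2, Pfkfb3, Pdk1, Pdk2 and Pdk3. Pfkfb3 had it at each of its 3 regions. Pfkp had it only at its region in intron 1 and not at the region over its start sites. Stretches of 30 bases around the core, on the coding strand, are shown for matches that lie outside annotated exons, to let the shared letters be seen in genes of different steps. Capitals mark the core or the full E-box on either strand. Hk2 is from chr6:82774490-82774519 (minus), Pgk1 from chrX:106186938-106186967 (plus), Pgam1 from chr19:41911745-41911774 (plus), Ldha from chr7:46845744-46845773 (plus), Pfkfb2 from chr1:130715826-130715855 (minus), Pfkfb3 from chr2:11501592-11501621 (minus) and Pdk2 from chr11:95041480-95041509 (minus).
Hk2: caatgagcacatcCACGTcactgtccgggg
Pgk1: gcgtcgtgcaggACGTGacaaatggaagta
Pgam1: cgctccttgcttACGTGcgctccgtgactg
Ldha: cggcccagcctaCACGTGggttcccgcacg
Pfkfb2: ggccaagcgcccCACGTGactcgccccaac
Pfkfb3: agtgcaggcagcCACGTGgggggctaggtt
Pdk2: ctcgaggagagcCACGTGtcgaagcgcaag
The last 4 are the genes whose windows hold the full E-box. In Ldha the E-box shown lies within the upstream stretch printed earlier, and its window holds 2 such boxes.

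Away from promoters, a distal region was a shared region in the gene body or within 20 kb of it, over 1 kb from every protein-coding start. At least 1 was present for 29 of 35 genes (82.9%), against 58% of all protein-coding genes. The 6 without were Aldoa, Aldoc, Pgam2, Ldhb, Pfkfb1 and Pdk3. For Aldoa, a region with 7.002 and 8.97 at chr7:126808883-126809604 was not counted because it lies at the start of a second annotated gene that carries the same symbol. The median number of shared regions of any kind in this window was 4 per gene against 2 over all genes, at similar median gene lengths of 17.7 and 17.4 kb. There were 80 distinct distal regions (126 with replicate 1 left out), of which 29 lay in introns, 25 upstream, 21 downstream, 4 in the gene outside its longest transcript and 1 in an exon. The nearest start site was that of the glycolysis gene for 57 and that of another gene for 23, so the latter cannot be assigned by position.

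The distal regions of these genes had a median fold of 4.93 and 5.49. Over all shared distal regions it was 5.51 and 6.30, against 9.10 and 10.2 over all shared promoter regions. The 10 strongest by mean fold belonged to 9 genes, and 2 of them were in Hk2. The Hk2 region in intron 7 at chr6:82740263-82740865 had 10.3 and 12.1 and the one in intron 2 at chr6:82752993-82753939 had 9.70 and 10.1, both above the Hk2 promoter by fold in both replicates. Their pileups of 110 and 158 and of 96 and 114 were below the 135 and 205 of that promoter. Pfkp had 10.6 and 11.4 in intron 2 at chr13:6633125-6634216, likewise above its promoter. This was 1 of 9 distal regions of Pfkp, the most of any of the genes. Slc2a3, with 8, had its strongest at chr6:122810245-122811989, with its summit at −68.4 kb from the start, with 9.79 and 11.5 and nearer the start of Foxj2. Of the 26 genes with both an open promoter and a distal region, 7 had a distal region above the strongest promoter region by fold in both replicates: Slc2a3, Hk2, Gpi1, Pfkp, Eno2, Ldha and Slc16a3. By summit pileup this held for 6 of them and not for Hk2. No limit from the replicate spread was applied to these differences. The same share over all open genes with a distal region was not computed. The Eno2 region, with 6.80 and 6.38, was nearer the start of Grcc10. Slc2a3 also had distal regions above its promoter nearest its own start, the stronger with 7.80 and 8.63. The Slc16a3 region, in intron 1, had 8.07 and 8.46.

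Ldha had 6 distal regions, of which 5 lay upstream between 6.84 and 24.1 kb. The strongest, 12.4 kb upstream at chr7:46833343-46834099, had 8.26 and 11.3 against 6.92 and 6.29 at its promoter, whereas Ldhb had none. Hk1 had 9.88 and 11.003 downstream of the gene at chr10:62261008-62261735, nearer the start of Tacr2. Pfkfb3 had 7.63 and 11.2 in intron 1 at chr2:11535400-11535965. The remaining 3 of the 10 were near Pdk1, 6.46 kb upstream with 8.59 and 9.63, near Gpi1, 3.89 kb upstream with 8.61 and 8.90, and near Slc16a1, 36.96 kb downstream of the start with 7.38 and 9.49. The ratio of replicate 2 to replicate 1 ran from 0.662 to 2.17 over the distal regions. The largest differences were in intron 1 of Pfkfb3 at chr2:11529817-11530721, with 4.53 and 9.84, and in intron 5 of Slc16a7 at chr10:125297921-125298398, with 4.36 and 9.04. Both ratios, 2.17 and 2.07, lay above the 95th percentile of all shared distal regions, 1.71, and in all 4 of the 80 regions lay outside the 5th to 95th percentile. At distal summits the sequence AGATAA was in 10% against 12.01% of all 31520 distal windows, TGANTCA in 23.8% against 27.9%, and the core ACGTG in 18.8% (11.7 to 28.7%) against 12.2%.

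**Figure D5:**
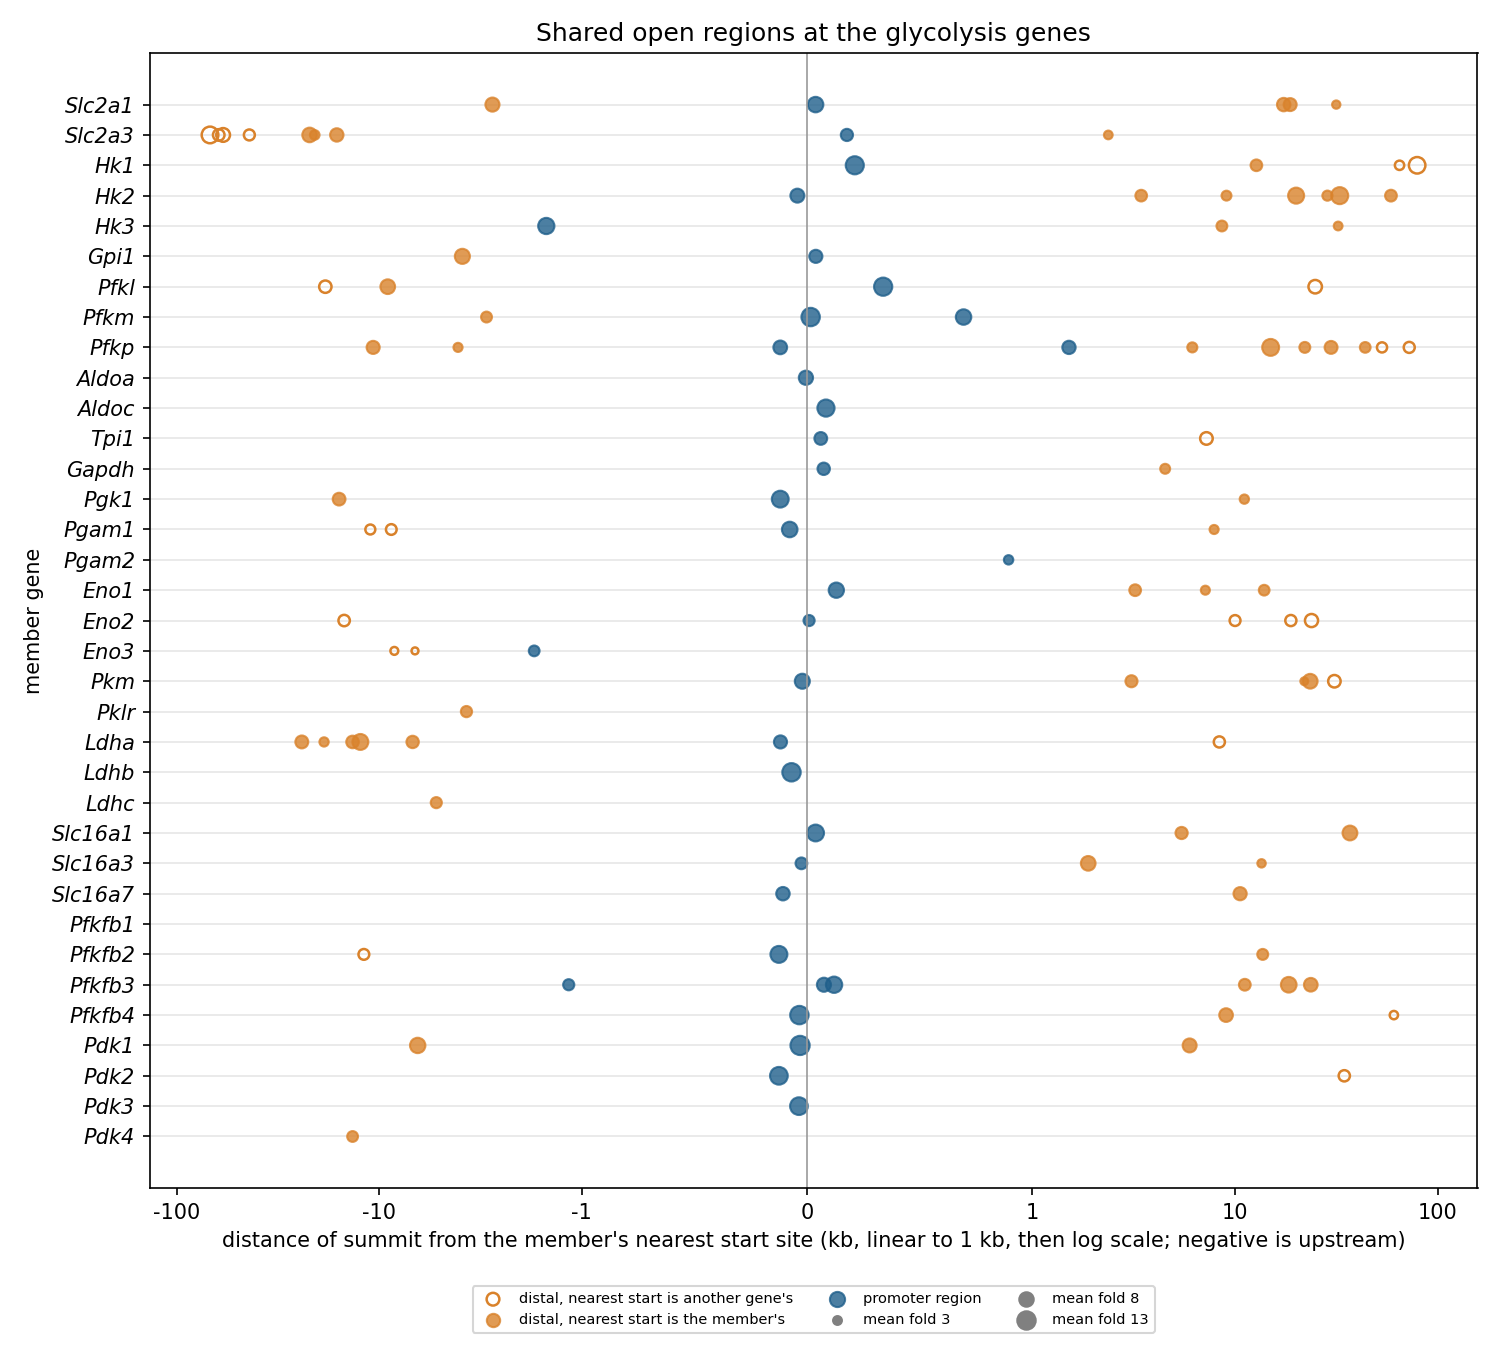
Distance of each shared region's summit from the nearest start site of its gene (horizontal axis, kb, linear within 1 kb and on a log scale beyond, upstream negative), with a row for each gene and symbol area in proportion to mean fold. Promoter regions are blue; distal regions are orange, filled for the 57 nearest the gene's own start and open where another gene's start is nearer, and the region in the windows of both Ldha and Ldhc is drawn in both rows.

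Of 49 other genes around the pathway, 35 had an open promoter (71.4%, against 58.3% of all protein-coding genes). Groups differed in their counts. Open were 10 of 11 genes of pyruvate entry into mitochondria, 7 of 8 of branch pathways such as the pentose phosphate pathway, and 8 of 9 of control genes. Open were 3 of 5 other glucose carriers, 2 of 4 other hexose entry enzymes, 2 of 5 further isoforms (Bpgm and Eno4) and 3 of 7 genes of gluconeogenesis. The 5 highest were Pdhb with 15.8 and 17.9, Arnt, the partner of HIF, with 15.3 and 16.5, Tigar, which lowers fructose 2,6-bisphosphate, with 13.4 and 18.1, Pdhx with 14.9 and 16.4 and Dld with 13.1 and 15.8. Pdhb, Pdhx and Dld encode parts of the pyruvate dehydrogenase complex that the Pdk kinases inhibit. The 14 without an open promoter included Slc2a2, Slc2a5, Hkdc1, Gapdhs, Pgk2, G6pc, Fbp1, Fbp2, Pck1, Pdha2, Gpd1 and Slc16a8. Many of them are known as liver, kidney, testis or muscle genes: Slc2a2 is the glucose carrier of liver and beta cells, and G6pc and Pck1 serve glucose release. Tissue use was not compared between these and the 35 open genes, which also include genes of gluconeogenesis. Open chromatin does not measure transcription, and fold is not comparable to an expression level.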

How the data were processed

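ATAC-seq of 2 Th2 libraries was deposited as 1 list of regions per library on mm10. Fold (a ratio), −log10 p and −log10 q of each region are the authors' deposited values. The deposited score was not used. No source used here names the aligner, the peak caller or the depth. Depth therefore enters through summit pileups: a Poisson model of the deposited fold and p gave whole counts within 0.001 of −log10 p for 51555 of 51557 and 60885 of 60891 regions, with medians of 31 and 37. Regions on chromosomes 1 to 19, X and Y were joined when overlapping by 1 bp, keeping the highest fold per replicate, and set against GENCODE M21 basic protein-coding transcripts with Python 3.11.15, pandas 2.3.3, SciPy 1.17.1 and pysam 0.24.0. The scripts were tested on simulated data. With 1 group, no test between groups was made. All 35 members were named, the 10 distal regions and 5 other pathway genes with the highest mean fold, pathway genes without an open promoter, and open marker genes. Some genes that this rule takes are not reported here. A pair of isoforms was called different when the ratio passed the 95th percentile of the replicate ratio, or its inverse, in both replicates. Members and lists were chosen with earlier results of these data known. Alternatives changed the promoter limit, start sites, q, overlap, flank, window, measure and replicates.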

Additional observations from a re-analysis of the deposited data

How the results depend on the processing

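No paired analysis was possible because there is 1 group. The number of genes with an open promoter (31) ran from 28 to 32 over the alternatives tried. Without the 20 kb flank 18 genes had a distal region and 38 such regions remained, a 50 kb flank gave 137, and a −log10 q of at least 10 gave 42. Leaving out a replicate gave 94 to 126 in place of 80, and 31 to 34 in place of 29 genes. The median of 4 regions per gene became 2 without the flank and 8 with 50 kb, and 4 to 5 with a replicate left out. Steps with every isoform open numbered 7, or 4 with a region over the start site itself, and 5 to 7 with a replicate left out. Open marker genes of other tissues numbered 5, 8 with a 2.5 kb limit and 2 with a region over the start itself. Windows of 400 bp held the core sequence in 77.1%, against 32.7% of all promoter regions. Isoform pairs beyond the replicate spread numbered 10, and 10 to 14 over the alternatives, but these were not always the same pairs. By −log10 p and by pileup, 6 of the 10 stayed beyond the spread in the same order. Under each of these 2 measures, 6 of the 22 pairs were reversed in both replicates. By summed fold, 9 of the 10 stayed and 3 pairs were reversed. The mean ratio of Pfkm to Pfkp turned to 0.810 by −log10 p and 0.517 by pileup, and that of Pfkl to Pfkp to 0.906 by the summed fold of all promoter regions. The cause was not tested. Region over the start site, full annotation and pileup were chosen after seeing the data. With summit pileups of 20 to 38 at Pgam2, Eno2 and Slc16a7, these are the least certain promoter values.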
